A study of Drosophila melanogaster with 9 samples.

Results

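The proteasome subunit genes of Drosophila melanogaster were followed in RNA-seq libraries of adult female heads. Members were the genes whose FlyBase symbol begins with Prosalpha or Prosbeta, or with Rpn or Rpt and a number, and which had 10 or more reads in at least 3 of the 9 libraries. Of 48 genes with such a symbol, 32 were members, out of 17558 gene rows, of which 9016 passed the same read minimum. They split into 13 core particle genes (of 25 with such a symbol) and 19 regulatory particle genes (of 23).

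The 9 libraries form 3 groups of 3, from flies homozygous for Ime4, flies heterozygous for Ime4 and control flies. Flies were raised at 25 °C (60% humidity) and heads were taken at 1 to 2 days of adult age, followed by poly(A) selection of the RNA. Ime4 is the enzyme that places N6-methyladenosine on messenger RNA as part of a larger methyltransferase complex. The labels give neither the allele nor the genotype of the controls beyond these words, nor how many heads entered a library or whether libraries came from separate cultures. The p-values therefore measure the spread between these libraries, which may be technical. Heads mix neurons, glia, eye, fat body and muscle, and fewer cells of a type and less RNA per cell cannot be told apart.

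The proteasome is the protease that degrades ubiquitin-tagged proteins. Its core particle is a barrel whose inner beta rings hold the cutting sites and whose outer alpha rings gate the entry. The regulatory particle caps the barrel: its base unfolds substrates with a ring of ATPases, and its lid removes the ubiquitin chain. In many animals the subunit genes are regulated together, in flies through the transcription factor cnc, and neurons depend on the complex for turnover of synaptic and damaged proteins.

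Ime4, listed in the annotation as Mettl3 (chromosome 3R, 24032157 to 24034257, BDGP6), had 3, 3 and 2 reads in homozygous libraries, 8, 13 and 16 in heterozygous libraries and 17, 19 and 18 in control libraries. The groups did not overlap and followed the labels. Libraries held between 2730289 and 4272550 reads assigned to genes. Markers of neurons and photoreceptors were present in all libraries (neuron list of 5 genes, summed 3771 to 6100.3 scaled read counts relative to library size, CPM). Some libraries also held transcripts of other tissues, and the digestive enzymes epsilonTry, thetaTry and Jon99Ciii were at 0 in homozygous library 3. A list of 8 digestive enzymes summed to 444, 502 and 35.8 CPM in homozygous libraries 1, 2 and 3, against 12.1 to 33.9 in heterozygous and 8.51 to 54.2 in control libraries. A list of 8 ovary genes summed to 348 CPM in control library 3 and to 0.479 to 3.67 CPM in the other 8 libraries. The share of reads outside any gene was 17.2% to 20.0% in homozygous, 19.1% to 28.4% in heterozygous and 26.2% to 31.7% in control libraries.

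All 32 members had 10 or more reads in every library and entered the test. Reads over the 9 libraries ranged from 218 for Rpt6R to 36947 for Rpn2, with a median of 2813. The 16 genes that missed the read minimum were 15 related copies with their own symbols and Prosalpha1, and 8 of them had no read in any library. The highest total among them was 35 reads, for Rpt4R. Testis-type copies belong to these: Prosalpha3T had no read, Prosalpha4T1 had 3 and Prosalpha6T had 4. Rpt6R, a relative of the ATPase gene Rpt6, was the one such copy among the members.

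Prosalpha1, an alpha ring subunit, was listed at 0 in all 9 libraries, as was its neighbour Prosalpha1R on the same strand 1734 bases away. The counting leaves out multiply placed reads, and whether this bears on the 0 was not tested. The core particle is therefore described here by 6 alpha ring and 7 beta ring genes.

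Levels per length differed widely among genes of one complex. On the scale of CPM per kb of exon, control means of regulatory particle genes ran from 5.06 ± 0.294 for Rpt6R to 439 ± 73.3 for Rpn2 (SD, n = 3). Core particle genes ran from 20.4 ± 8.21 for Prosbeta4 to 206 ± 30.5 for Prosalpha4. The ratio of highest to lowest in control was 86.8 for the regulatory and 10.1 for the core particle. The 86.8 rests on Rpt6R, the related copy of Rpt6, while no such copy is among the core members. The next lowest regulatory gene was Rpn12 with 23.4 ± 10.2 CPM per kb. In all, 4 regulatory genes stood above every core gene in control: Rpn2, Rpn5 with 382 ± 53.1, Rpn8 with 301 ± 54.3 and Rpn1 with 278 ± 46.9 CPM per kb. Rpn8 and Rpn1 differed by less than the SD of Rpn8, and Rpn2 and Rpn5 by less than the SD of Rpn2. In homozygous heads Rpn1 was at 136 ± 26.2 and in heterozygous heads at 191 ± 2.41 CPM per kb. Prosalpha4 stood at 158 ± 32.2 and 197 ± 16.5 in these groups. The mean of Rpn1 was thus not above that of the highest core gene in either group. In both groups Rpn1 and Prosalpha4 differed by less than the SD of Prosalpha4. The median over the 13 core genes was 49.6 in homozygous, 47.4 in heterozygous and 45.4 CPM per kb in control heads. That median fell on Prosbeta2 in both allele groups and on Prosbeta1 in control, so it compares different genes. The mean over the core genes had the opposite order, at 56.8 ± 10.9, 59.9 ± 4.01 and 62.3 ± 10.6 CPM per kb (SD, n = 3), with overlapping spreads. The median over the 19 regulatory genes was 56.2, 68.9 and 81.0 CPM per kb in the same groups.

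**Figure D1:**
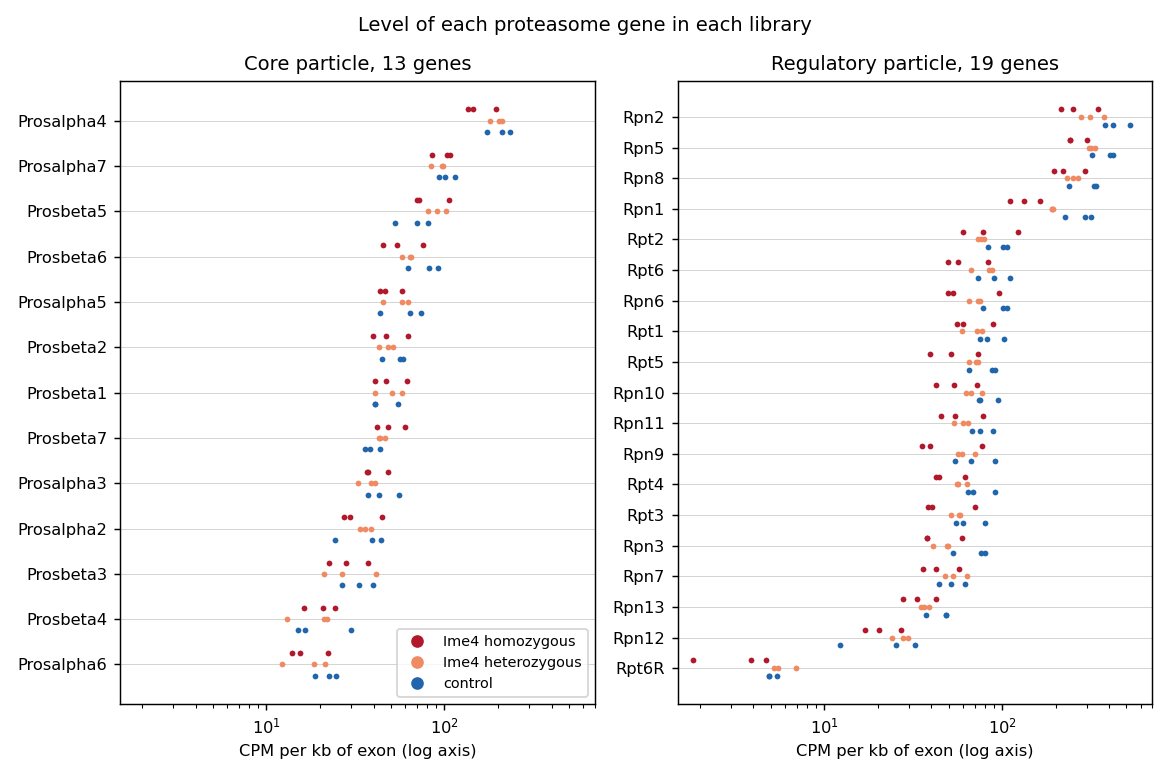
Level of each member in each library, in CPM per kb of exon on a log axis, with 3 points per group; core particle genes are on the left and regulatory particle genes on the right. Rpn2, Rpn5, Rpn8 and Rpn1 stand apart at the top of the regulatory particle, and Rpt6R lies lowest.

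In homozygous against control heads 6 of the 19 regulatory genes fell at an edgeR adjusted p below 0.05: Rpn1, Rpn2, Rpn3, Rpt4, Rpn5 and Rpn10. They were 31.6% of the 19, where 8.77% of the 8972 genes tested were called lower and 10.9% higher (19.7% in either direction). No regulatory gene was called higher, all 19 had a log2 fold change below 0 (48% of all tested genes did), and their median log2 fold change was -0.52, against 0.02 over all tested genes. Of the 13 core genes 0 were called by edgeR, DESeq2 or limma-voom, 3 had an unadjusted p below 0.05 in edgeR, 10 were below 0, and the median log2 fold change was -0.09 with a range from -0.43 to 0.35. Because the members were chosen with results known, the difference between the particles was not tested.

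Within the base, the largest change was in Rpn1, a scaffold that binds ubiquitin and shuttle factors. Rpn1 had 406, 339 and 498 CPM in homozygous libraries, 590.5, 578 and 578 in heterozygous libraries and 685, 960.4 and 887 in control libraries. The 3 groups did not overlap, and heterozygous heads lay between the others. Its log2 fold change was -1.03 ± 0.15 (SE) in homozygous against control heads, with an edgeR adjusted p of 0.000533. Rpn1 was called in this comparison under each of the 21 other settings, with log2 fold changes from -1.18 to -0.75 and adjusted p from 8.23e-09 to 0.00674.

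Rpn2, the second large scaffold of the base and the docking place of Rpn13, had 849, 729 and 1173 CPM in homozygous, 1068, 948 and 1279 in heterozygous and 1289.7, 1775 and 1429 in control libraries. Homozygous and control libraries did not overlap, though homozygous library 3 lay near the lowest control. The log2 fold change was -0.71 ± 0.18 (edgeR adjusted p = 0.0138), a call lost without homozygous library 2 or control library 2 (adjusted p up to 0.0805). Rpn10, a ubiquitin receptor, had 60.4, 76.3 and 103 CPM in homozygous, 89.5, 94.9 and 109 in heterozygous and 106, 105 and 134 in control libraries. Homozygous and control libraries were separated by a narrow gap, the log2 fold change was -0.53 ± 0.18 and the edgeR adjusted p was 0.049. That call was lost in 8 of the 9 fits that left out 1 library, with adjusted p up to 0.179. Rpn13, the other ubiquitin receptor, averaged 57.7 ± 12.2 CPM in homozygous and 74.8 ± 10.4 CPM in control heads and missed the threshold (log2 fold change -0.38 ± 0.16, edgeR adjusted p = 0.11).

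Of the 6 ATPases that form the unfolding ring, Rpt4 alone passed. Rpt4 had 64.7, 62.3 and 90.7 CPM in homozygous, 93.1, 82.6 and 81.6 in heterozygous and 94.0, 100.2 and 133 in control libraries. All homozygous libraries were below all control libraries, and the log2 fold change was -0.59 ± 0.17 (edgeR adjusted p = 0.0244). Leaving out homozygous library 1 or 2 or control library 3 ended that call, with adjusted p up to 0.113. Rpt5 lay just past the threshold, with 63.7, 84.4 and 119 CPM in homozygous against 106, 149 and 143 in control libraries, a log2 fold change of -0.58 ± 0.19 and an edgeR adjusted p of 0.0506, and it was called with DESeq2 and with limma-voom. The remaining ATPases had log2 fold changes of -0.53 ± 0.20 (Rpt6), -0.39 ± 0.21 (Rpt3), -0.35 ± 0.18 (Rpt1) and -0.17 ± 0.20 (Rpt2), none of them called. The ATPase median was -0.46, and that of the 4 other base genes was -0.62. Rpt6R, at 2.63, 5.59 and 6.81 CPM in homozygous and 7.80, 7.10 and 7.04 CPM in control libraries, did not overlap between the groups but was not called (-0.54 ± 0.32, edgeR adjusted p = 0.258).

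In the lid, 2 of 8 genes fell and the median log2 fold change was -0.43. Rpn5, a scaffold of the lid's PCI-domain horseshoe, had 458, 457 and 571 CPM in homozygous, 583, 600.1 and 633 in heterozygous and 609, 793 and 771 in control libraries. Homozygous libraries lay below all others, the log2 fold change was -0.55 ± 0.13 and the edgeR adjusted p was 0.0108. Rpn3, of the same horseshoe, had 69.5, 69.6 and 109 CPM in homozygous, 89.5, 74.5 and 91.4 in heterozygous and 96.98, 139 and 147 in control libraries. Its homozygous library 3 overlapped the control range, and the log2 fold change was -0.63 ± 0.19 (edgeR adjusted p = 0.0328). The call was lost in 4 of the 9 fits that left out 1 library (homozygous 1 or 2, control 2 or 3), with adjusted p up to 0.124, and that of Rpn5 in 1 (control 2; 0.059). Rpn11, the metalloprotease that cuts off the ubiquitin chain, averaged 71.8 ± 20.5 CPM in homozygous and 93.2 ± 12.9 CPM in control heads, and its partner Rpn8 averaged 361 ± 76.0 and 461 ± 83.2 CPM in the same order. Neither was called (edgeR adjusted p of 0.155 and 0.143). The other lid genes that missed the threshold were Rpn6, Rpn9, Rpn7 and Rpn12, with log2 fold changes of -0.52, -0.48, -0.21 and -0.14.

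Counted over the regulatory particle, 6 genes had no overlap between homozygous and control libraries, all lower, where 15.9% of all tested genes were separated in that direction. They were Rpn1, Rpn2, Rpt4, Rpn5, Rpn10 and Rpt6R. No core gene was separated between these groups in either direction.

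The core genes took different directions. All 6 alpha ring genes had a log2 fold change below 0 (median -0.22), and the 7 beta ring genes had 4 below and 3 above 0 (median -0.01). Prosalpha4 had 169.8, 159 and 229 CPM in homozygous, 237, 211 and 249 in heterozygous and 205, 247 and 276 in control libraries. The homozygous and control ranges overlapped, with a log2 fold change of -0.38 ± 0.15 (edgeR adjusted p = 0.094). Prosbeta6, a beta subunit without a cutting site, averaged 55.0 ± 15.1 CPM in homozygous and 74.2 ± 14.3 CPM in control heads, with a log2 fold change of -0.43 ± 0.19 (edgeR adjusted p = 0.118).

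Prosbeta7 had the highest fold change of the complex. It had 50.8, 58.7 and 72.7 CPM in homozygous, 56.7, 51.8 and 52.6 in heterozygous and 43.5, 46.3 and 52.5 in control libraries. The ranges of homozygous and control libraries overlapped, and the log2 fold change of 0.35 ± 0.15 was not called (edgeR adjusted p = 0.107). Among the 3 genes for catalytic subunits, Prosbeta5 (chymotrypsin-like site) had a log2 fold change of 0.28 ± 0.18, Prosbeta1 (caspase-like site) of 0.13 ± 0.19 and Prosbeta2 (trypsin-like site) of -0.09 ± 0.17. None of these was called, with edgeR adjusted p of 0.315, 0.675 and 0.742.

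**Figure D2:**
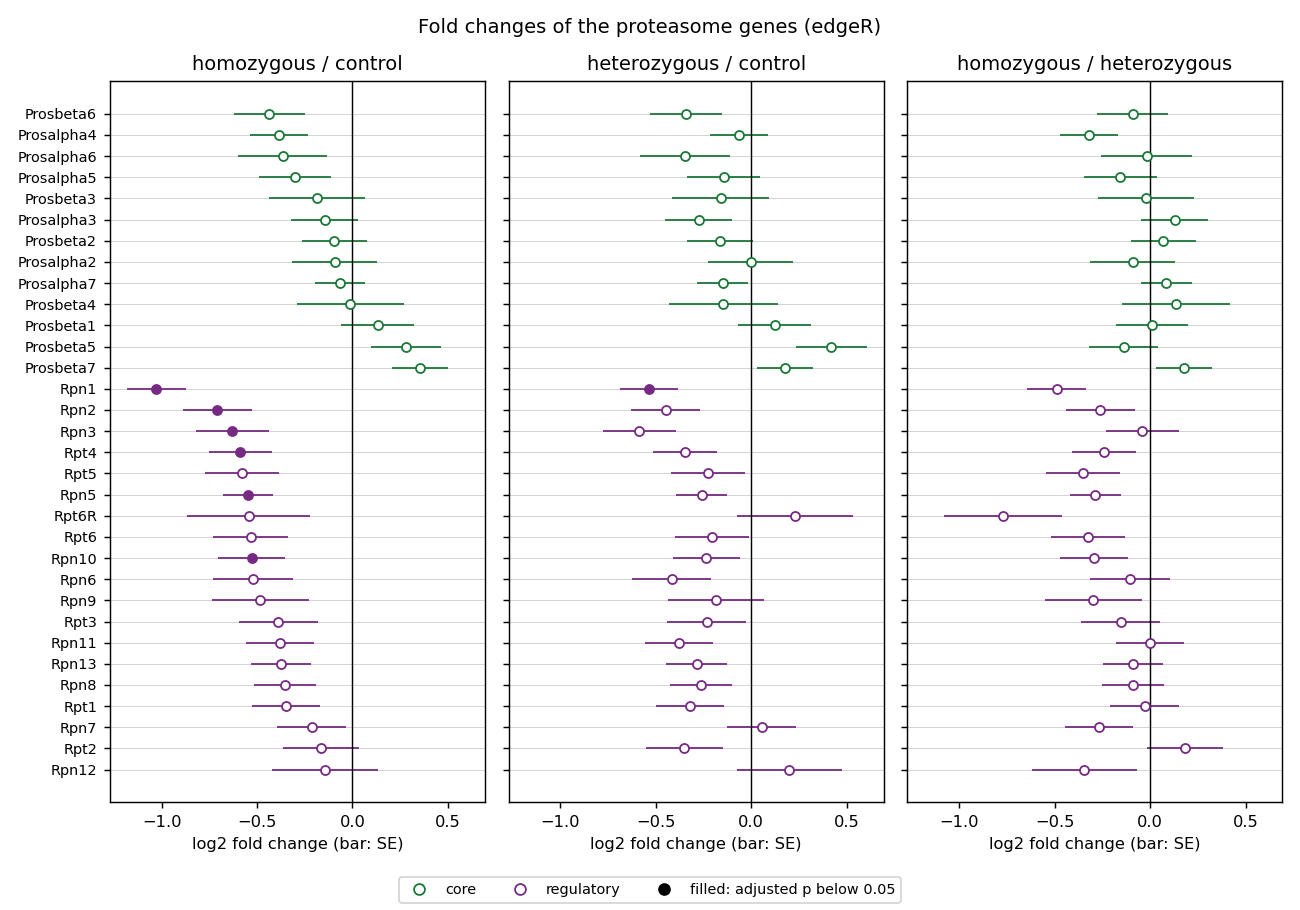
Log2 fold change of each member with its standard error in the 3 comparisons (edgeR); filled points have an adjusted p below 0.05. In homozygous against control heads all 19 regulatory genes lie left of 0 with 6 filled, and the 13 core genes spread around 0 with none filled.

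Heterozygous against control heads gave 1 call among the members. Rpn1 fell by 0.54 ± 0.15 on the log2 scale (edgeR adjusted p = 0.0425), where 3.77% of all tested genes were called lower and 5.55% higher (9.32% in either direction). The call was lost in 6 of the 9 fits that left out 1 library, namely each heterozygous library, homozygous library 1 and control libraries 2 and 3, with adjusted p up to 0.181. Without homozygous library 3 the regulatory genes called lower numbered 5, with Prosbeta5 called higher, and without control library 1 they numbered 2. The direction was below 0 for 16 of the 19 regulatory genes (51.3% of all tested genes) with a median of -0.26, and for 10 of the 13 core genes with a median of -0.15, against -0.01 over all tested genes. In 7 regulatory genes all heterozygous libraries were below all control libraries, as did 15.6% of all tested genes, and no core gene did. Rpn3 (-0.59 ± 0.19, edgeR adjusted p = 0.0718) and Rpn2 (-0.45 ± 0.18, adjusted p = 0.145) were not called, although the fold change of Rpn3 was below that of Rpn1. Prosbeta5 had 103, 92.7 and 116 CPM in heterozygous against 59.8, 79.8 and 92.7 CPM in control libraries. The groups met at 92.7 CPM, and the log2 fold change of 0.42 ± 0.19 was not called (edgeR adjusted p = 0.191).

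Of the 13 core genes edgeR called 0 in heterozygous against control heads, as did DESeq2 and limma-voom, with 1 at an unadjusted p below 0.05 in edgeR. Both allele groups are set against the same 3 control libraries, so the values of both comparisons share them.

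Homozygous against heterozygous heads gave 0 calls among the 32 members with edgeR, against 5.48% of all tested genes in either direction (2.11% lower and 3.38% higher). An unadjusted p below 0.05 was found for 3 regulatory genes, Rpn1, Rpn5 and Rpt6R. DESeq2 called 1, Rpn1, and limma-voom called 0. Rpn1 had the lowest edgeR adjusted p among the members, 0.0788, with a log2 fold change of -0.49 ± 0.15. The regulatory median was -0.26 with 17 of 19 genes below 0 (47.4% of all tested genes), and the core median was -0.02 with 7 of 13 below 0. In 3 regulatory genes all homozygous libraries were below all heterozygous libraries, where 12.9% of all tested genes were separated that way. Without homozygous library 3, edgeR called 9 regulatory genes and 1 core gene lower. Without homozygous libraries 1 and 2 instead, the direction turned: 19 of the 32 members changed sign, the regulatory median was 0.061 and the core median 0.28, and Rpt2 was called higher (0.64, edgeR adjusted p = 0.0122).

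The libraries of a group differed among themselves along the whole complex. Homozygous library 3 was the highest of its group for 31 of the 32 members (96.9%), where it was highest for 37.5% of all tested genes. It exceeded the mean of libraries 1 and 2 by a median of 0.57 on the log2 CPM scale over the members (0.62 in the regulatory and 0.50 in the core particle). Over all tested genes, with a prior count of 2 used there only, the median was -0.01. Control library 1 was the lowest of its group for 30 members (93.8%; 34.8% of all tested genes), and control library 3 was the highest for 24 (75.0%; 35.7%). Among heterozygous libraries, library 2 was the lowest for 21 members (65.6%, against 35.1% of all tested genes). Heterozygous library 3 was the highest for 15 members (46.9%, against 34.4%). Members of both particles were thus high or low together between libraries of the same genotype. Some related genes outside the member list had the same order. The 8 proteasome regulators and assembly factors summed to 390, 388 and 564 CPM in homozygous and 484, 610 and 637 CPM in control libraries. Much of that sum was Sem1, with 189, 188 and 259 CPM in homozygous and 229, 328 and 322 in control libraries. The order did not hold for the whole list. Homozygous library 3 was not the highest of its group for PI31, REG and ntc. Control library 1 was not the lowest for Pomp, REG, ntc and CG8858. The polyubiquitin gene Ubi-p5E had 422, 423 and 799 CPM in homozygous and 629, 686 and 895 in control libraries. Ribosomal protein genes went the other way in homozygous libraries, with sums of 32436.5, 35233 and 24953 CPM. The 0.57 between homozygous libraries is larger in size than the regulatory median of -0.52 between homozygous and control heads.

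**Figure D3:**
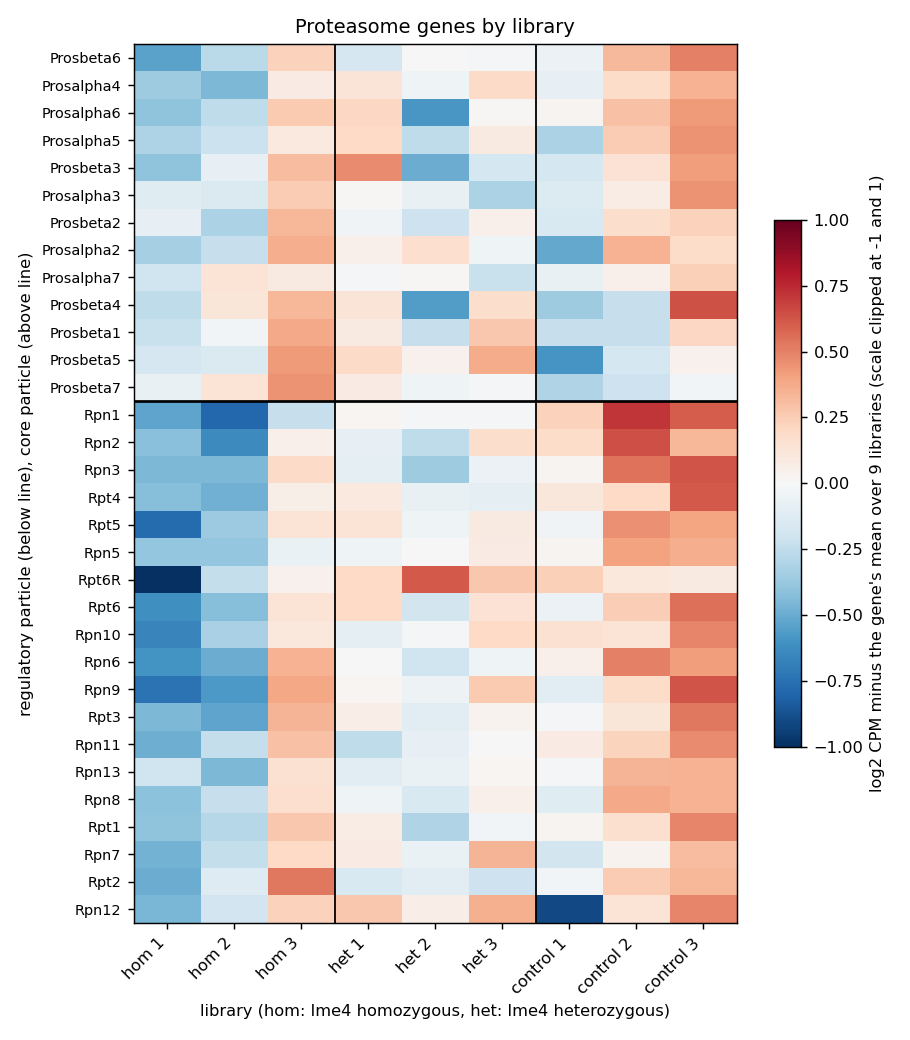
Log2 CPM of each member in each library minus the mean of that gene over the 9 libraries, red above and blue below; core genes are above the line and regulatory genes below it. Homozygous libraries 1 and 2 are blue over nearly all members and control library 3 is red, while homozygous library 3 is red for most members and blue for Rpn1 and Rpn5.

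Homozygous libraries 1 and 2 are also the ones with the digestive enzyme transcripts given above (betaTry at 138 and 180.3 CPM, against 1.46 in library 3), and control library 3 holds the ovary transcripts. Fat body transcripts, a list of 5 measured genes, summed to 8989, 8745 and 3248 CPM in homozygous libraries 1, 2 and 3, against 6857 to 10820.3 in heterozygous and 4070.0 to 6039 in control libraries. The part of these transcripts in the proteasome values was not tested. With both homozygous libraries left out, the single remaining library, assumed to vary like the other groups, still had Rpn1 called lower against control (log2 fold change -0.79, edgeR adjusted p = 0.00674). The other calls were lost: Rpn2 stood at -0.38, Rpn5 at -0.37, Rpt4 at -0.29, Rpn3 at -0.26 and Rpn10 at -0.19. The regulatory median was then -0.11 and the core median 0.13, and Prosbeta5 (0.61, edgeR adjusted p = 0.0454) and Prosbeta7 (0.59, adjusted p = 0.0258) were called higher. Without homozygous library 3 instead, 16 of 19 regulatory genes and 2 core genes, Prosalpha4 and Prosbeta6, were called lower.

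Other single libraries moved the count as well. Without homozygous library 1 the regulatory genes called lower against control numbered 3, and without homozygous library 2 they numbered 2. Leaving out control library 2 gave 2 and control library 3 gave 3, with Rpn1 among them each time.

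Set against each other within a library, the particles kept an order that their levels did not. The median deviation of the regulatory genes from their mean over all libraries, minus that of the core genes, was -0.22, -0.24 and -0.14 in homozygous libraries, -0.07, 0.00 and 0.04 in heterozygous libraries and 0.20, 0.11 and 0.13 in control libraries, on the log2 scale. All homozygous libraries were below all heterozygous ones, and those below all control ones, homozygous library 3 included. The median deviation of each particle alone overlapped between groups: the regulatory values were -0.47, -0.39 and 0.17 in homozygous and 0.02, 0.25 and 0.47 in control libraries. The core values were -0.25, -0.15 and 0.31 in homozygous and -0.18, 0.14 and 0.35 in control libraries.

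The ratio of the mean core level to the mean regulatory level, in CPM per kb, was 0.660, 0.687 and 0.622 in homozygous libraries, 0.618, 0.584 and 0.573 in heterozygous libraries and 0.486, 0.459 and 0.524 in control libraries. Group means were 0.656 ± 0.0327, 0.592 ± 0.0239 and 0.490 ± 0.0328 (SD, n = 3) in that order. Homozygous and heterozygous libraries were separated only by the gap between 0.622 and 0.618, while both allele groups stood clear of control. Without the 5 genes of highest level (Rpn1, Rpn2, Rpn5, Rpn8 and Prosalpha4, chosen after their values were seen) the ratio was 1.04, 1.03 and 0.868 in homozygous, 0.892, 0.861 and 0.837 in heterozygous and 0.732, 0.746 and 0.749 in control libraries. Homozygous and heterozygous values then overlapped, and both stayed above control. A ratio within a library does not depend on the scaling between libraries, and it shows unequal levels, not which particle changed. Division by exon length does not remove a length trend that differs between libraries, and no ratio was made with a correction for it.

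**Figure D4:**
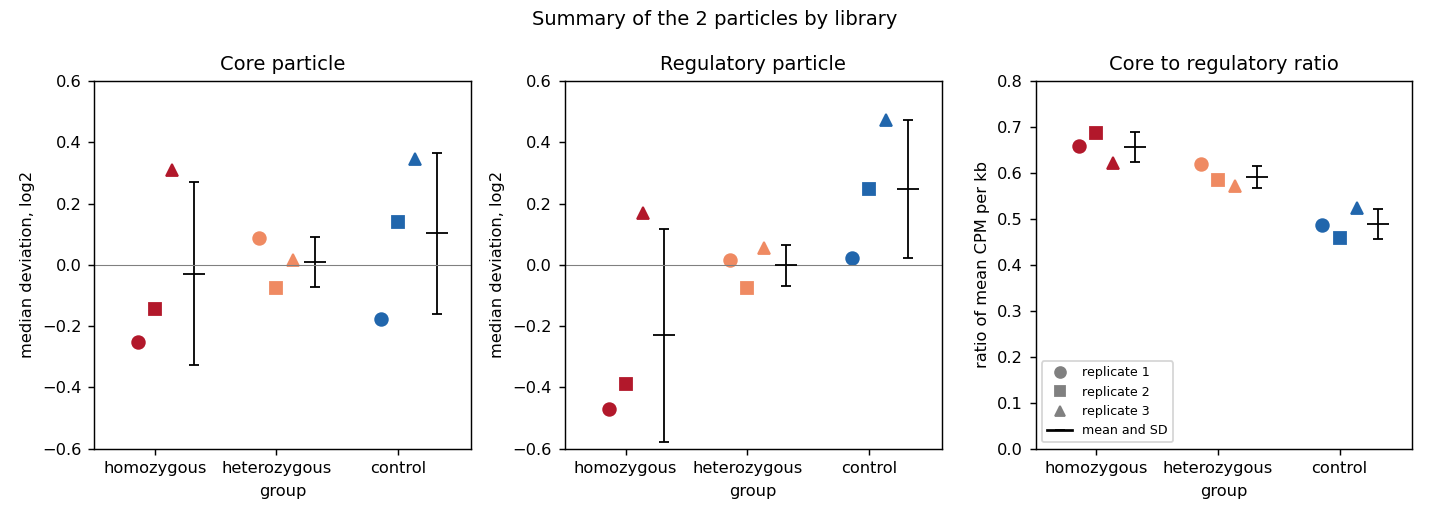
Summary of the 2 particles per library: the median log2 deviation of the core genes (left) and the regulatory genes (middle), and the ratio of mean core to mean regulatory CPM per kb (right), with the mean and SD of each group. The medians overlap between groups, while the ratio is 0.622 to 0.687 in homozygous, 0.573 to 0.618 in heterozygous and 0.459 to 0.524 in control libraries.

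The particles also differ in transcript length. Summed exon length was 815 to 1215 bases in the core genes (median 973) and 995 to 3412 bases in the regulatory genes (median 1553). Across the 32 members the log2 fold change of homozygous against control heads was lower in longer genes, with a Pearson r of -0.72 against log10 length and a Spearman rho of -0.73. This is a description across genes that share libraries, and Rpn1 and Rpn2 are the longest; without them r was -0.62 over 30 genes. Within the regulatory particle r was -0.74 over 19 genes and within the core 0.16 over 13 genes, and over 8792 tested genes with a length r was -0.24.

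Libraries were therefore refitted with a smooth correction for exon length. The regulatory median was then -0.53 and the core median -0.26 in homozygous against control heads. With it 7 regulatory genes were called lower, Rpt5 being added (edgeR adjusted p = 0.0467), and 1 core gene, Prosalpha4 (-0.51, adjusted p = 0.0427). Rpn1 stood at -0.96 (adjusted p = 0.000585). The regulatory minus core deviation after the correction was -0.16, -0.11 and -0.14 in homozygous, -0.09, 0.01 and 0.05 in heterozygous and 0.11, 0.05 and 0.10 in control libraries. Homozygous libraries still lay below the other groups, and heterozygous library 3 (0.045) lay just below the lowest control library (0.049).

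**Figure D5:**
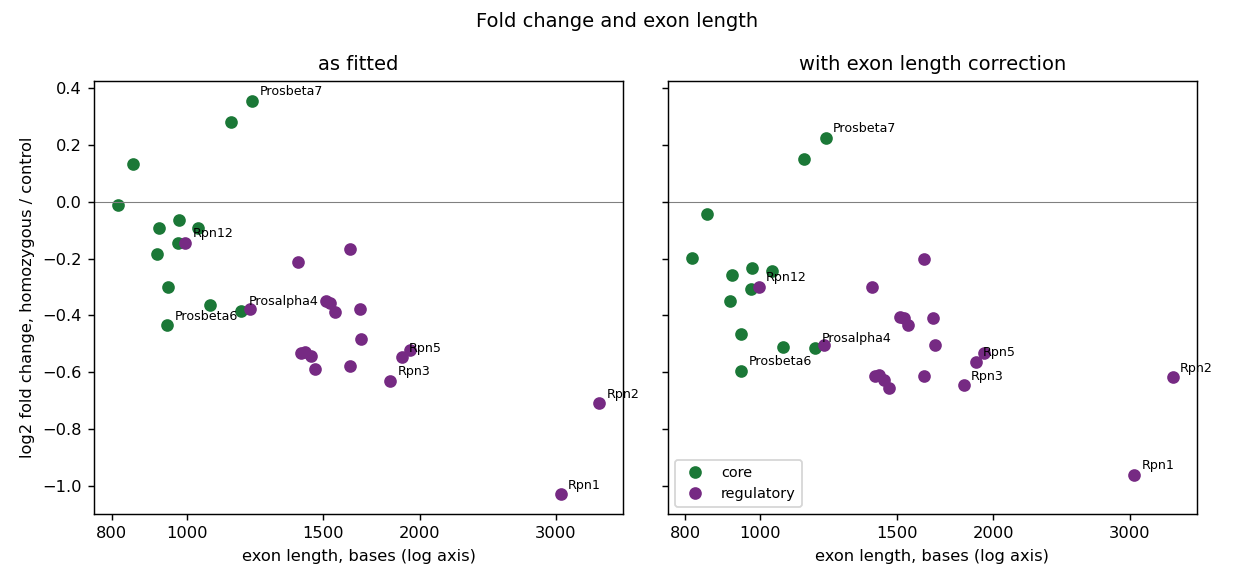
Log2 fold change of homozygous against control heads for each member over its exon length in bases on a log axis, as fitted (left) and with a correction for exon length (right); green points are core and purple points regulatory genes. The core genes, all of 1215 bases or shorter, move down with the correction, and Rpn1 stays lowest in both panels.

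The members lie on all major arms, with 2 core and 2 regulatory genes on 2L, 5 and 4 on 2R, 2 and 3 on 3L, 3 and 7 on 3R and 1 and 3 on X. The 4 members nearest to Ime4 on 3R were Rpt2 at 101 kb, Rpt5 at 278 kb, Rpn9 at 299 kb and Rpn7 at 1570 kb, and none was called in the 3 comparisons of the edgeR fit over all 9 libraries. Under other settings some of them were called lower. Against control without homozygous library 3 these were Rpt5 (edgeR adjusted p = 0.000373), Rpn9 (0.000485) and Rpt2 (0.00896). Rpt5 was also called lower against control with the exon length correction (edgeR adjusted p = 0.0467), and Rpn9 with a block for the replicate number (0.0393). Against heterozygous heads without homozygous library 3, Rpt5 (edgeR adjusted p = 0.0117) and Rpn9 (0.00806) were called lower. With homozygous libraries 1 and 2 left out instead, Rpt2 had a log2 fold change of 0.64 against heterozygous heads. On opposite strands, 12 members share 1 to 264 exon bases with another gene. Whether counting used the strand is not given in the sources used here, so how reads on those bases were counted is not known. Reads listed as ambiguous between genes, 1.1% to 1.6% of a library, were not in the gene counts. Of the 6 called genes such overlap touches Rpt4 alone, which shares 93 bases with wuho.

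Genes that build, regulate or feed the proteasome were read from 11 lists, and their counts stand against 8.77% of all tested genes called lower and 10.9% called higher in homozygous against control heads. Against that share, 1 or 2 calls in a list of 5 to 13 genes are no result about the list. Of 8 tested proteasome regulators and assembly factors, 1 fell in homozygous against control heads and 0 rose, with a median log2 fold change of -0.27. The one was Uch-L5, the deubiquitinase that docks on Rpn13, at 36.6 ± 12.1 CPM in homozygous, 42.0 ± 2.21 in heterozygous and 57.0 ± 13.0 CPM in control heads (log2 fold change -0.64 ± 0.21, edgeR adjusted p = 0.048). Sem1, a small lid subunit whose symbol the member rule does not take in, had 212 ± 40.4, 199.6 ± 23.4 and 293 ± 55.5 CPM in the same order of groups. It fell in heterozygous against control heads (-0.56 ± 0.16, edgeR adjusted p = 0.049), a call that limma-voom did not make, and had -0.47 ± 0.16 (adjusted p = 0.0593) in homozygous against control heads.

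The cnc pathway list gave 0 calls among 7 tested genes in homozygous against control heads with edgeR, DESeq2 and limma-voom, 0 at an unadjusted p below 0.05, and a median of -0.09. The gene cnc itself, the activator of proteasome genes in flies, had 195 ± 39.6 CPM in homozygous, 186 ± 19.7 in heterozygous and 235 ± 19.4 CPM in control heads (log2 fold change of homozygous against control -0.27 ± 0.14, edgeR adjusted p = 0.217). Among 8 genes of the p97 and ER-associated degradation list 1 rose, sip3, a membrane ubiquitin ligase of the ER (0.90 ± 0.17, edgeR adjusted p = 0.00296). The COP9 signalosome, a relative of the lid in build, had 0 called of 8 with each of the 3 tools, 1 at an unadjusted p below 0.05 in edgeR, and a median of 0.07. The selective autophagy list had 0 called of 9 with each tool, 1 at an unadjusted p below 0.05, and a median of -0.22.

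Upstream, 1 of the 5 genes for ubiquitin and its activating enzyme rose, RpS27A, which encodes ubiquitin fused to a ribosomal protein (0.98 ± 0.15, edgeR adjusted p = 0.000709). The polyubiquitin gene Ubi-p5E had 548 ± 217, 667 ± 152 and 737 ± 140.2 CPM in homozygous, heterozygous and control heads and was not called (adjusted p = 0.228). Of 13 ubiquitin-conjugating enzymes 2 rose, eff (0.41 ± 0.12, edgeR adjusted p = 0.0263) and Ubc10 (0.55 ± 0.12, adjusted p = 0.0052). Of 23 deubiquitinases 4 fell and 0 rose, namely trbd, Usp10, Usp32 and Usp12-46, with log2 fold changes of -0.49, -0.50, -0.40 and -0.45 and a list median of -0.19. Of the 12 genes on the chaperone list 1 rose, Hsc70Cb (listed in the annotation as Hsp110, 0.49 ± 0.12, edgeR adjusted p = 0.0125). That list took in hop, which encodes a Janus kinase and not a chaperone, and which was not called.

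In heterozygous against control heads, where 5.55% of all tested genes were called higher and 3.77% lower, sip3 (0.76 ± 0.18, edgeR adjusted p = 0.0154), RpS27A (0.86 ± 0.15, adjusted p = 0.00367) and Hsc70Cb (0.43 ± 0.12, adjusted p = 0.044) rose, and 48 of 78 ribosomal protein genes rose. The co-chaperone stv rose in heterozygous heads, at 392 ± 43.5 CPM against 203 ± 72.4 CPM in control heads (0.94 ± 0.22, edgeR adjusted p = 0.016), and was at 204 ± 35.9 CPM in homozygous heads. The sum of 5 muscle markers was also high in heterozygous heads. It was 13524 to 19154 CPM in homozygous, 22040.0 to 24561 in heterozygous and 14188 to 16958 CPM in control libraries. Most of it came from the genes up and Mhc, at 14378 ± 1171 and 7772 ± 288 CPM in heterozygous heads. Of the 5 muscle genes, Mhc and bt were called higher in heterozygous against control heads and lower in homozygous against heterozygous heads. Act88F and TpnC4 instead had their highest group mean in homozygous heads, at 470 ± 342 and 117 ± 105 CPM. Homozygous library 1, at 76.2 and 10.1 CPM, was yet the lowest of the 9 libraries for both. In heterozygous heads Act88F and TpnC4 had 333 ± 43.4 and 74.3 ± 17.6 CPM, and neither was called in any comparison. The part of muscle transcripts in the other values was not tested. Usp8, a deubiquitinase of endosomal cargo, was the 1 called gene of the 23 deubiquitinases there (0.54 log2 fold change), and of the 13 conjugating enzymes edgeR called 0 (1 at an unadjusted p below 0.05), DESeq2 0 and limma-voom 0. In homozygous against heterozygous heads the calls outside tissue markers were Usp32 (-0.58), stv (-0.94) and 1 V-ATPase gene, all lower.

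Ribosomal protein and V-ATPase genes were read as other large complexes. Of 78 tested ribosomal protein genes, RpS27A among them, 64 rose and 0 fell when homozygous heads were set against control heads, with a median log2 fold change of 0.65, and of 16 V-ATPase genes 5 rose and 1 fell, with a median of 0.25. Among the 5 neuron markers 3 fell in the same comparison, elav, Syt1 and Syn, and the list median log2 fold change was -0.68. Neither nSyb (-0.08, edgeR adjusted p = 0.657) nor brp (-0.28, adjusted p = 0.118) was called. The 5 genes summed to 3771 to 4302 CPM in homozygous, 4396 to 4682 in heterozygous and 5405 to 6100.3 CPM in control libraries. Most of that drop was Syt1, at 1108 ± 66.8 CPM in homozygous and 2244 ± 180 CPM in control heads. Photoreceptor markers summed to 18323 to 20461 CPM in homozygous, 22904 to 25794 in heterozygous and 23755 to 26231 CPM in control libraries. Of the 6 photoreceptor genes 3 fell and 1 rose. Glia markers, 5 genes, summed to 5009 to 6382 CPM in homozygous, 4919 to 5558 in heterozygous and 4403 to 4924 CPM in control libraries. Most of that sum was Gs2, at 4782 ± 747 CPM in homozygous, 4238 ± 343 in heterozygous and 3762 ± 251 in control heads. In homozygous against control heads alrm fell. The other glia genes were not called, with log2 fold changes of 0.35 (Gs2), 0.14 (repo), 0.01 (moody) and -0.19 (Eaat1). The part of these differences in the proteasome values was not tested.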

How the data were processed

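Total RNA was isolated with Trizol, purified on oligo-dT beads and made into directional libraries, per the labels' protocols. The submitters' processing notes name CASAVA 1.8.4, STAR 2.4.0h, HTSeq 0.6.1, DESeq2 1.6.3 and the build BDGP6; strand setting and filters are not given in the sources used here. The authors deposited raw read counts per gene, 1 table for each of the 9 libraries, with 17558 gene rows and 5 summary lines, which stayed out of library sizes.

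Of the gene IDs, 17252 were found in an Ensembl annotation of this assembly, which gave symbols, coordinates and summed exon lengths. Counts were scaled by TMM in edgeR 4.0.16 (R 4.3.3) and filtered with filterByExpr (minimum count 10, total 15), leaving 8972 genes. The edgeR quasi-likelihood test was fitted to the 3 group means over all 9 libraries, with Benjamini-Hochberg adjustment over all tested genes and a threshold of 0.05. CPM are scaled counts. Log2 CPM of the members used no prior count, except in the length-corrected deviations. Those and log2 CPM over all tested genes used a prior count of 2. The step was tested on simulated counts. Lists are described by counts and medians, with no test over a list.

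Every member could be named; from other lists, up to 4 called genes with the lowest p, and further ones named here (cnc, Ubi-p5E, tissue markers) were chosen outside that rule. The members and lists were chosen with earlier results of these data known. The alternatives were RLE and upper-quartile size factors, 3 other low-count filters, DESeq2 1.42.0, limma-voom (limma 3.58.1), a fit with only the 2 groups, a block for the replicate number, a lowess correction for exon length (span 0.3) per library, and leaving out libraries. The exon length correction combined with leaving out 2 libraries was added after seeing the data. Promoter and protein sequences were not analysed here. The labels do not say whether the replicate numbers pair libraries across groups, and the main fit did not pair them.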

Additional observations from a re-analysis of the deposited data

How the results depend on the processing

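Rpt6R had the fewest reads of the members, 218 over all libraries. No called member changed direction under any of the 21 settings tried, and changes of sign were seen only in values that were not called.

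Regulatory genes called lower in homozygous against control heads (6) numbered 7 with RLE or upper-quartile size factors, 8 with DESeq2, 7 with limma-voom, 9 without a low-count filter and 3 with only the 2 groups compared. With homozygous libraries 1 and 2 left out they numbered 1, also with the exon length correction, and core genes called higher then numbered 2 and 2 (main 0). Leaving out 1 library at a time gave 2 to 16 regulatory and 0 to 2 core genes called lower. Core genes called lower numbered 1 with the exon length correction. The regulatory median (-0.52) was -0.11 without homozygous libraries 1 and 2 and -0.095 with the length correction added.

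In heterozygous against control heads the 1 regulatory gene called lower became 2 without a filter, 2 with DESeq2, 6 with only the 2 groups compared, 4 without homozygous libraries 1 and 2, and 5 with the length correction added, where 1 core gene was called lower. Leaving out 1 library gave 0 to 5 regulatory genes lower and 0 to 1 core genes higher. In homozygous against heterozygous heads the 0 regulatory genes called lower became 1 without a filter and 1 with DESeq2, and 0 to 9 with 1 library left out (core 0 to 1). Without homozygous libraries 1 and 2, 1 regulatory gene, Rpt2, was called higher, also with the length correction; the core median was 0.28 (0.32 with the correction, main -0.02) and the regulatory median 0.061 (0.081, main -0.26). The cause of these shifts was not tested. Rpt6R gave no value under the filter of at least 10 CPM.

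Over all tested genes, deviations from the group means correlated at -0.0659 to 0.117 for the same replicate number and at -0.114 to 0.114 for others. Of the 9 libraries, 5 correlated best with a library of their own number. Among the 32 members, library 3 was most often the highest in the homozygous (31), heterozygous (15) and control (24) groups. Library 1 was most often the lowest in the homozygous (23) and control (30) groups, and library 2 (21) in the heterozygous group. Whether a number marks libraries prepared together is not in the labels and was not tested. With the replicate block 9 regulatory genes and 1 core gene, Prosbeta6, were called lower in homozygous against control heads, and 1 regulatory gene in heterozygous against control heads (Rpn3 in place of Rpn1).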
